A study of Mus musculus with 4 samples.

Results

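The Notch receptors, ligands and effectors measured here are 10 genes: the receptors Notch1, Notch2, Notch3 and Notch4, the ligands Dll1, Dll4, Jag1 and Jag2, and the nuclear effectors Rbpj and Hes1. They were taken by name from the array's annotation, as all probe sets that name a single gene of these, which gave 21 probe sets for the 10 genes, out of 18193 genes on the array. Each gene is represented by its brightest probe set, judged by the mean of the 4 arrays, and every other probe set is reported beside it. RNA came from haematopoietic stem cells (HSCs) of the bone marrow of transgenic mice carrying a fusion of N-myc with the red fluorescent protein mCherry. The cells were Lin-Sca+Kit+CD48-CD150+, were neither cultured nor treated, and were split by mCherry signal into fractions called N-myc high and N-myc low, so both groups carry the fusion. Each fraction was profiled from a mouse 1 and a mouse 2, which gives 2 arrays per group. The labels state no age, sex or strain, and do not say whether a sample pooled animals.

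Notch signalling passes between touching cells. A ligand of the Delta-like or Jagged family on one cell pulls on a Notch receptor of its neighbour, proteases cut the receptor, and its freed intracellular domain enters the nucleus and binds the DNA-binding protein RBPJ, which then switches from repression to activation of target genes such as Hes1. In blood formation the pathway is known above all for Notch1, which directs progenitors to the T cell lineage, and for its part in the first HSCs of the embryo.

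Of the 10 genes, the receptor gene Notch3 had the largest difference between the fractions with the probe sets that stand for them. It was about 2.01-fold higher in N-myc high HSCs, and both of its probe sets gave nearly the same value. The receptor gene Notch4 and the ligand gene Dll4 were higher by 0.41 and 0.39 on the log2 scale, both with 95% intervals that reach below 0. Notch1, Notch2, Dll1, Rbpj and Hes1 differed by 0.12 or less on the log2 scale with the probe sets that stand for them. Jag1 and Jag2 gave opposite signs with different probe sets, and 1 probe set of Jag1 gave 1.57 on the log2 scale, more than Notch3. At an adjusted p under 0.05 in limma, 0 of the 10 were called, and 0 (0%) of the 18193 genes, whose lowest adjusted p was 0.671. Without adjustment, 1148 genes had a p under 0.05. At an unadjusted p under 0.01 together with a difference of at least 1.5-fold there were 223 (1.23%), and Notch3 was the 1 of the 10 among them. With the mean of probe sets Jag1 met that rule too, higher by 0.76 on the log2 scale with an unadjusted limma p of 0.00891. Notch3 left that stricter list with the mouse as a replicate block, where its unadjusted limma p was 0.0118, and with a variance trend, where it was 0.0110. It also left the list when the N-myc low array of mouse 1 was dropped (0.0269), and when the N-myc high array of mouse 1 (0.0325) or of mouse 2 (0.0416) was.

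The values are log2 intensities after RMA, a method that corrects background, makes the distributions of all arrays alike and sums up the probes of a probe set. A step of 1 is therefore a doubling, and levels of different probe sets cannot be set against each other. With 2 arrays against 2, the smallest two-sided p that exact permutation allows for any single value is 0.333, and so few arrays limit the precision. Fewer cells with a transcript and less of it per cell cannot be told apart in such bulk RNA.

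The arrays had median log2 intensities between 5.26 and 5.32. Mycn, the gene behind the sort, was at 10.48 and 10.39 in N-myc high (mouse 1 and mouse 2) and at 9.44 and 9.65 in N-myc low. Both arrays of mouse 1 carried the female transcript Xist at 11.38 and 11.10 together with the Y-linked Eif2s3y at 8.53 and 8.43, while mouse 2 had Xist at 3.84 and 3.70. Whether mouse 1 is a single animal is therefore in doubt, and a difference within mouse 1 is one between fractions of that sample, whatever it holds. The stem cell genes Kit and Slamf1, which encode surface proteins of the sort, were at 10.17 to 10.53 and at 8.01 to 8.99. Of 10 measured HSC markers, 4 were higher and 1, Gata2, was lower without overlap, where 15.6% and 20.8% of all genes were, while Meis1 (0.01) and Tek (0.04) hardly differed. Procr, a marker of long-term HSCs, was at 9.18 and 9.27 in N-myc high and at 7.99 and 8.08 in N-myc low, and Cd48, a progenitor antigen the sort selects against, was at 7.42 and 7.11 against 9.89 and 9.07. Of 10 measured erythroid and megakaryocyte markers, 8 were lower in both N-myc high arrays than in both N-myc low arrays, and 1 was higher. Of 12 measured macrophage and myeloid markers, 3 were higher and 5 lower without overlap. C1qb among them was higher by 2.66, while C1qa and C1qc gave 0.32 and 0.26 with overlapping groups. Of 8 measured B cell markers, 3 were higher without overlap, Vpreb1 by 2.45, and 0 were lower. The part of these shifts in any difference of a Notch gene was not tested.

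**Figure D1:**
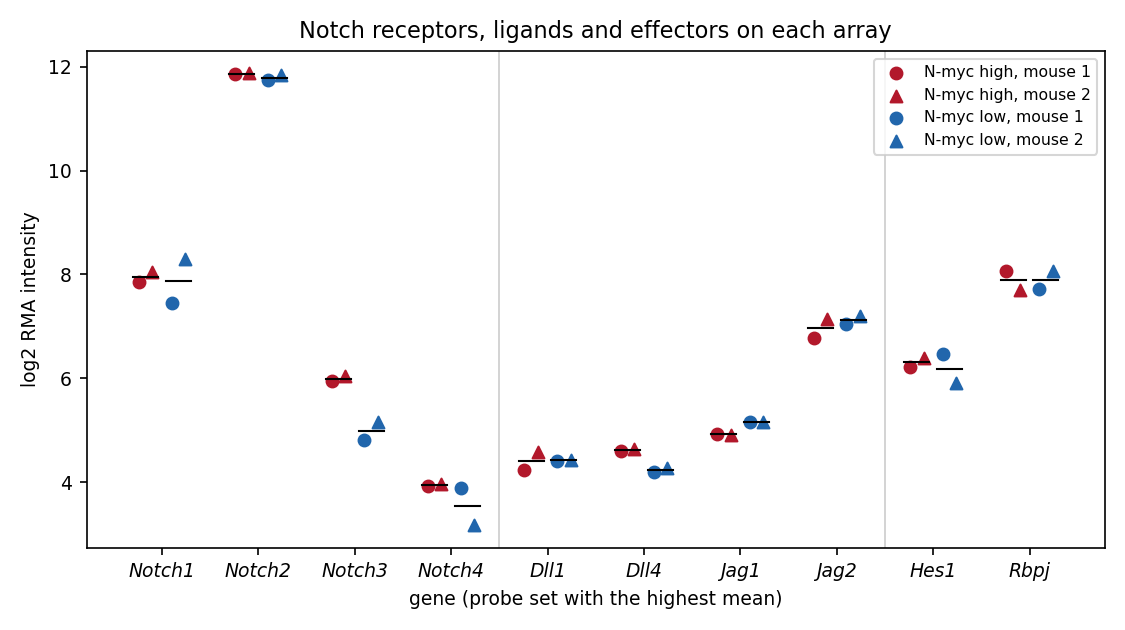
Log2 RMA intensity of the probe set that stands for each of the 10 genes (y axis) on each array, with N-myc high in red, N-myc low in blue, circles for mouse 1, triangles for mouse 2 and black bars for the group means of 2 arrays. The red and blue points of Notch3 lie furthest apart, at 5.95 and 6.04 against 4.81 and 5.16, while those of Rbpj, Dll1 and Hes1 mix; heights of different genes are not comparable.

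Among the receptors, Notch3 was at a log2 intensity of 5.95 and 6.04 in N-myc high and at 4.81 and 5.16 in N-myc low (mouse 1 and mouse 2). The fractions did not overlap, and the gap exceeded the spread within either group. The difference was 1.01 with a standard error (SE) of 0.210 and a 95% interval of 0.45 to 1.56 (limma, unadjusted p = 0.00643, adjusted p = 0.762). It was 1.13 in mouse 1 and 0.88 in mouse 2. Of all genes, 3.53% were higher at an unadjusted p under 0.05, and 2.05% were higher by as much as Notch3. Its other probe set, the dimmer of the pair, was at 4.86 and 5.02 in N-myc high and at 3.73 and 4.17 in N-myc low, a difference of 0.99 (SE 0.237). Both probe sets read the same RNA of the same arrays, so they are no replicates of each other. Notch3 is best known from pericytes and vascular smooth muscle and from developing T cells. The pericyte marker Pdgfrb was at 9.63 and 7.36 in N-myc high and at 8.05 and 8.25 in N-myc low, so its groups overlapped. Its difference was 1.59 in mouse 1 and -0.89 in mouse 2. Of 10 measured stromal and osteoblast markers, Pdgfrb among them, 0 were higher and 0 lower without overlap (15.6% and 20.8% of all genes). The T cell receptor complex genes were dim: Cd3d was at 3.85 and 3.91 against 3.84 and 3.51, without overlap, Cd3e at 3.22 and 3.29 against 3.20 and 3.29, and Cd3g at 2.56 and 2.81 against 2.90 and 2.50. Of 11 measured T and NK cell markers, 1 was higher and 2 were lower without overlap (15.6% and 20.8% of all genes), and their mean was 4.32 and 4.44 against 4.54 and 4.43. Whether pericyte or T cell RNA bears on the values of Notch3 was not tested.

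The promoter of Notch3 is shown as the regulatory sequence of the gene with the largest difference among the probe sets that stand for the 10 genes. The run ends where the annotated gene begins, at chr17:32166897-32167140 (GRCm38.p6, minus strand), as RefSeq gives it.
Notch3 promoter: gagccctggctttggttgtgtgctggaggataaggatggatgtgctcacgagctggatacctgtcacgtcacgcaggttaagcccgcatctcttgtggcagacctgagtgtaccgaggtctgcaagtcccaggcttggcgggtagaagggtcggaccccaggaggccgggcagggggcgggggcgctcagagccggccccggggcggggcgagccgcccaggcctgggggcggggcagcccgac
These 244 bases hold 68.9% G and C, where the median over all promoters of the table, taken over 250 bases before the start, is 52.4%. They hold neither CACGTG, the E-box letters that MYC proteins are known to bind, nor TGGGAA, the core letters of RBPJ sites, on either strand, which is why no base stands in capitals. That is a statement about this window alone. Over all 32851 promoters, 6.02% hold CACGTG and 21.6% hold TGGGAA in their 250 bases before the start. For 9 of the 10 genes, all but Hes1, the table had at least 1 promoter, and none of these held CACGTG.

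Notch1, the receptor that sets T cell fate, had overlapping groups with the probe set that stands for it. It was at 7.85 and 8.05 in N-myc high and at 7.46 and 8.29 in N-myc low, so the N-myc low arrays lay on both sides of the N-myc high ones. The difference was 0.07 (SE 0.333, 95% interval -0.81 to 0.96), with 0.39 in mouse 1 and -0.24 in mouse 2. The dimmer probe set of Notch1 gave another picture, with 6.76 and 6.60 in N-myc high against 6.11 and 6.14 in N-myc low. There the groups did not overlap and the difference was 0.56, with an unadjusted p of 0.0344 and an adjusted p of 0.774 in limma over 45037 probe sets. Which of the probe sets follows the Notch1 transcript more closely was not tested.

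Notch2, the receptor best known in blood for marginal zone B cells, was at 11.86 and 11.87 in N-myc high and at 11.74 and 11.84 in N-myc low. The groups did not overlap, but the difference was only 0.07 (SE 0.176, 95% interval -0.39 to 0.54). Its second probe set was at 8.74 and 8.94 in N-myc high and at 8.87 and 8.44 in N-myc low, which overlap. With the probe set that stands for Notch2, the interval leaves out changes larger than 0.54 in either direction. The second probe set gave 0.18, with a wider 95% interval of -0.47 to 0.82.

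Notch4, a receptor known mainly from endothelium, was at 3.92 and 3.96 in N-myc high and at 3.89 and 3.17 in N-myc low. Mouse 1 had a difference of 0.03 and mouse 2 one of 0.79, so the mean of 0.41 (SE 0.296) rested on the N-myc low array of mouse 2. Without that array it was 0.05. The probe set of Notch4 that differed most gave 0.68, with 3.57 and 3.70 in N-myc high against 3.16 and 2.74 in N-myc low (limma, unadjusted p = 0.0380, adjusted p = 0.778). The remaining probe set gave 0.10, with overlapping groups between 2.24 and 2.57. All of these lie below 6.22, the median over all genes, as do the values of Notch3, Dll1, Dll4 and the probe set that stands for Jag1, and detection calls were not used here.

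Endothelial genes, in whose company Notch4 and Dll4 are often found, were more often higher than lower in N-myc high. Of 13 such markers, 6 were higher and 1 lower in N-myc high without overlap, where 15.6% of all genes were higher and 20.8% lower in that way. Their mean log2 intensity was 6.14 and 6.41 in N-myc high against 5.88 and 6.03 in N-myc low. Vwf, a platelet and endothelial adhesion protein that HSCs also express, was higher by 1.88, and the endothelial transcription factor gene Sox18 likewise by 1.88. The others that were higher without overlap were Kdr (0.61), Emcn (0.60), Egfl7 (0.39) and Tie1 (0.08). The 1 that was lower, the endothelial cadherin gene Cdh5, was dim throughout, at 3.34 and 3.35 against 3.65 and 3.51. Whether endothelial RNA bears on the values of Notch4 and Dll4 was not tested.

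**Figure D2:**
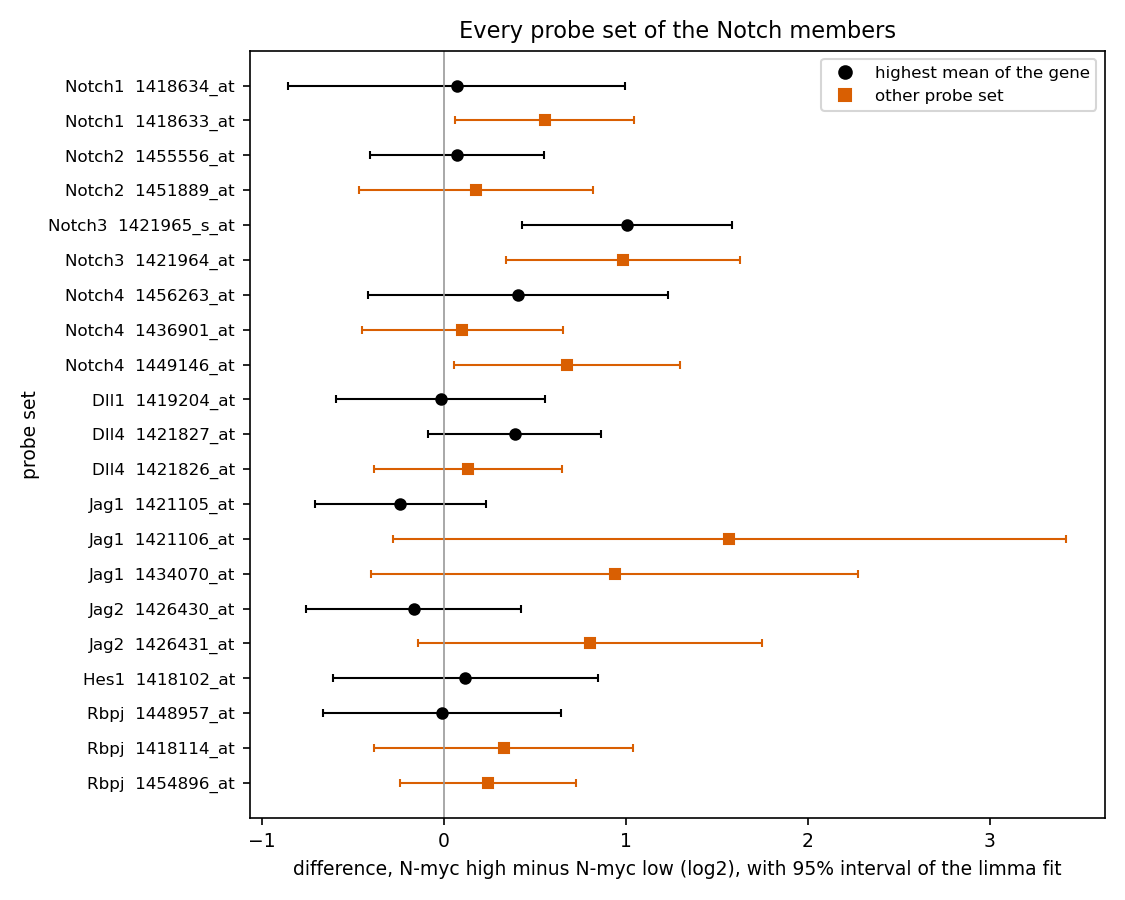
Difference between N-myc high and N-myc low on the log2 scale (x axis) with the 95% interval of the limma fit over all probe sets, for each of the 21 probe sets (y axis), with black circles for the probe set that stands for its gene and orange squares for the others. Both probe sets of Notch3 lie near 1, and those of Jag1 spread from -0.24 to 1.57.

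Among the ligands, Dll4, a Delta-like ligand of endothelium and of the thymus, was at 4.61 and 4.64 in N-myc high and at 4.19 and 4.28 in N-myc low. The groups did not overlap, and the SDs within them were 0.024 and 0.066 (n = 2 each). The difference was 0.39 (SE 0.175, 95% interval -0.07 to 0.86), with an unadjusted p of 0.0816 and an adjusted p of 0.793 in limma. It was 0.42 in mouse 1 and 0.36 in mouse 2. A second Dll4 probe set gave 0.14, with 3.69 and 3.92 in N-myc high against 3.70 and 3.64 in N-myc low, which overlap.

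Dll1, the Delta-like ligand of marginal zone B cell niches, was at 4.23 and 4.59 in N-myc high and at 4.41 and 4.44 in N-myc low. The N-myc high arrays lay on both sides of the N-myc low ones. The difference of -0.02 (SE 0.209, 95% interval -0.57 to 0.54) had no stable sign, and it was 0.01 with each array centred on its median. Dll1 had a single probe set.

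Jag1, a Jagged ligand of the stem cell niche and of vessels, was at 4.93 and 4.92 in N-myc high and at 5.17 and 5.15 in N-myc low with the probe set that stands for it. This was the only gene of the 10 that was lower without overlap, by -0.24 (SE 0.172, 95% interval -0.69 to 0.22). Its other probe sets went the other way. The first was at 4.69 and 6.60 in N-myc high and at 3.97 and 4.17 in N-myc low, a difference of 1.57 (SE 0.681) that came mostly from the N-myc high array of mouse 2. The second was at 5.07 and 3.76 against 3.31 and 3.64, a difference of 0.94 (SE 0.494) that came mostly from the N-myc high array of mouse 1. Averaging all Jag1 probe sets gave 0.76, so the sign for this gene depended on the probe set.

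Jag2, the second Jagged ligand, was at 6.78 and 7.14 in N-myc high and at 7.05 and 7.20 in N-myc low. The groups overlapped, and the difference was -0.17 (SE 0.215, 95% interval -0.74 to 0.41). Its dimmer probe set was at 6.17 and 6.98 in N-myc high and at 5.60 and 5.94 in N-myc low, without overlap and with a difference of 0.81 (SE 0.348). The mean of both gave 0.32, and so the sign for Jag2 was not settled either.

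Of the effectors, Rbpj, the DNA-binding protein on which all Notch receptors converge, was at 8.07 and 7.71 in N-myc high and at 7.73 and 8.06 in N-myc low. The fractions swapped order between the mice, with 0.34 in mouse 1 and -0.35 in mouse 2. The difference was -0.01 (SE 0.237, 95% interval -0.64 to 0.62), and 0.02 with each array centred on its median. The other probe sets of Rbpj gave 0.33 and 0.25, each higher in both mice. The brighter of these was at 7.82 and 7.77 in N-myc high against 7.49 and 7.60 in N-myc low, without overlap.

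Hes1, a transcriptional repressor and a direct target of Notch signalling, was at 6.21 and 6.40 in N-myc high and at 6.47 and 5.90 in N-myc low. The N-myc low arrays lay on both sides of the N-myc high ones. The difference was 0.12 (SE 0.263, 95% interval -0.58 to 0.82), with -0.26 in mouse 1 and 0.49 in mouse 2. Hes1 had a single probe set, so this reading cannot be set beside another.

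Rbpj was the only one of the 9 genes with a promoter that held the letters TGGGAA or, on the other strand, TTCCCA. Windows of 30 bases around the matches are given, because RBPJ binds such letters, with the match in capitals, on the plus strand of GRCm38.p6 as RefSeq gives it.
Rbpj match at chr5:53590185-53590214: aatgaaaaaggcTGGGAAcccgcggcgagc
Rbpj match at chr5:53590269-53590298: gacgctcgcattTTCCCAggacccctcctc
The first match begins 149 bases and the second 65 bases before a start site at position 53590346 of chromosome 5. That site lies inside the annotated gene, which spans 53555779 to 53657445, and not at its outer end as for Notch3. Such a match is a description of letters and shows no binding.

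Taken over all 10 genes, 4 were higher without overlap (Notch2, Notch3, Notch4 and Dll4) and 1 lower (Jag1), where the array as a whole had 15.6% and 20.8%. The median difference was 0.07, against -0.03 over all genes. At an unadjusted p under 0.05, Notch3 was higher, 1 of 10, with 0 lower, where all genes had 3.53% and 2.78%. Without the N-myc low array of mouse 1 the first of these counts was 2, as Notch4 joined Notch3, and the median was -0.0040. Probe sets of the same gene read the same RNA, so the 21 probe sets of the 10 genes are no independent units. Of the 21 probe sets, 11 were higher and 1 lower without overlap, where 14.4% and 22.1% of all probe sets were. Their median difference was 0.25, against -0.05 over all probe sets, and at that p 4 were higher and 0 lower (3.06% and 3.32% of all probe sets). These 4 were both probe sets of Notch3 and 1 each of Notch1 and Notch4. With the replicate block those of Notch1 and Notch4 left the count, where their unadjusted limma p was 0.0631 and 0.0666, and the dimmer one of Jag2 entered it at 0.0380. That count was 2 without the N-myc high array of mouse 2 and 2 without the N-myc low array of mouse 2.

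**Figure D3:**
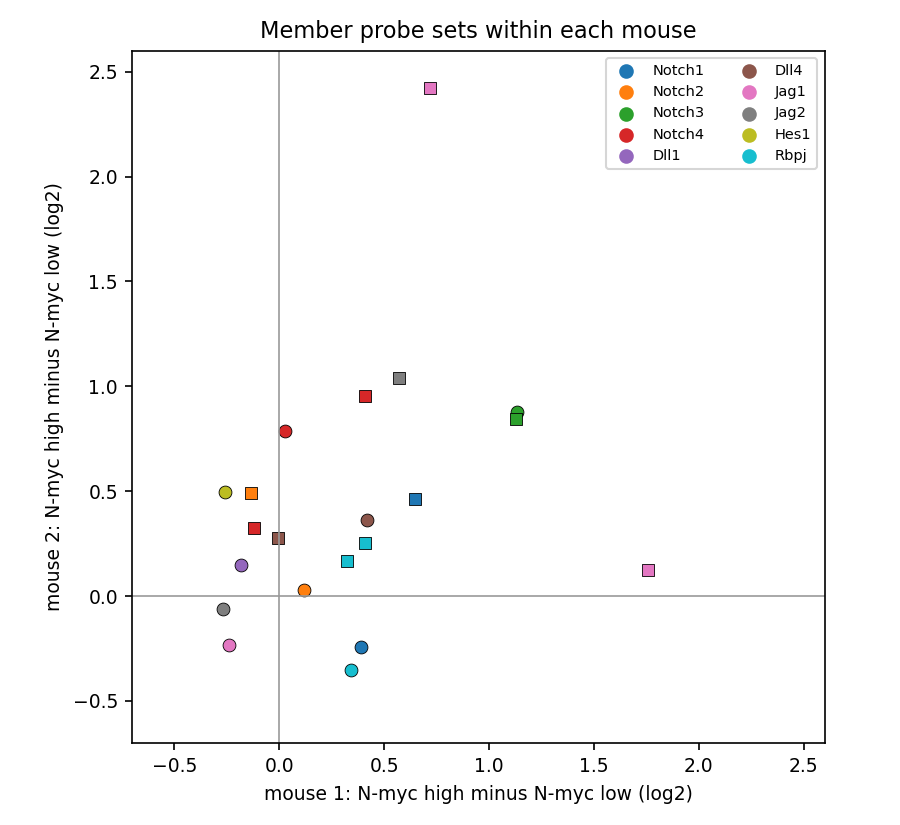
Difference between N-myc high and N-myc low on the log2 scale in mouse 1 (x axis) and in mouse 2 (y axis) for the 21 probe sets, coloured by gene, with circles for the probe set that stands for its gene and squares for the others. Of the 21 probe sets, 12 lie in the upper right, higher in both mice, 2 in the lower left and 7 in the mixed quadrants or on their border; the Jag1 squares lie far out along 1 axis each.

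Within the mice, 12 of the 21 probe sets were higher in both, 2 were lower in both and 7 had opposite signs, where 21.8%, 31.3% and 45.9% of all probe sets did so. The probe sets that were lower in both mice were those that stand for Jag1 and Jag2. Over the 4 arrays, the values of each gene less their own mean were compared by root mean square distance. The closest of the other 9 genes to Notch3 was Dll4, at a distance of 0.32 on the log2 scale, since Dll4 had the same order of fractions with a smaller gap. Dll1 and Jag2 were the nearest pair, at 0.087. Over all genes, the nearest to Notch3 were Sash1 at 0.028, Pelo at 0.060 and Spaca6 at 0.069. Sash1 was at 7.76 and 7.87 in N-myc high and at 6.59 and 7.01 in N-myc low. With 18193 genes and only 4 arrays, such closeness shows no shared control, and how common it is for other profiles was not tested.

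The other genes of the pathway were read from 7 groups with 80 genes in all. The array measured 74 of them under a single gene name and left 6 without a value. The members that follow were named by rank, not by passing a test. At the adjusted threshold in limma 0 were called (lowest adjusted p 0.762). Without adjustment, 3 had a p under 0.05 and were higher, and 0 were lower: the cyclin gene Ccnd1, the protease gene Adam17 and the glycosyltransferase gene Poglut1. For comparison, 3.53% of all genes were higher and 2.78% lower at that p. A replicate block for the mouse gave 5 higher: Ccnd1 and Adam17 stayed, Poglut1 left, and Ccn3, Lfng and Numbl entered. The count was 7 without the N-myc high array of mouse 2, and 1 higher and 1 lower without the N-myc low array of mouse 2. Of the 74, 15 were higher and 10 lower without overlap, where 15.6% and 20.8% of all genes were, and the median difference was 0.09. These counts use the probe set that stands for each gene. In limma over all probe sets, some other probe sets also had an unadjusted p under 0.05. Those of Tle1 (-1.68) and Fbxw7 (-0.68) were lower. Those of Kat2a, Maml1, Eogt, Hes5 and Adam17 were higher.

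The enzymes that add sugars to the receptor's extracellular part, and so set how it answers to ligands, had the largest group median, 0.45 over 6 genes. With the probe sets that stand for them, all 6 had a positive difference, where the median over all genes was -0.03. The difference was positive in both mice for 4 of them, as for 23.2% of all genes. Without overlap, 3 of the 6 were higher and 0 lower, where 15.6% and 20.8% of all genes were. Other probe sets gave 0.68 for Lfng, 1.28 and 0.73 for Eogt, and -0.22 for Rfng. Poglut1, which adds O-linked glucose, was at 6.26 and 6.36 in N-myc high and at 5.85 and 5.52 in N-myc low, a difference of 0.63 (SE 0.208; limma, unadjusted p = 0.0337, adjusted p = 0.779). Its p was 0.0591 with the replicate block, 0.0688 with a variance trend, and above 0.05 in 3 of the 4 fits without an array, all but that without N-myc low mouse 1. Pofut1, which adds O-linked fucose, was at 8.21 and 8.22 against 7.96 and 7.36, a difference of 0.55 (SE 0.265). The other probe sets of Pofut1 gave 0.44, without overlap, and -0.16.

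Of the proteases that cut the receptor, 8 were measured, with a median of 0.04. Adam17, a surface protease that sheds the extracellular part of many receptors, was at 8.97 and 9.03 in N-myc high and at 8.43 and 8.26 in N-myc low. The groups did not overlap, and the difference was 0.65 (SE 0.182; limma, unadjusted p = 0.0188, adjusted p = 0.769). The other Adam17 probe sets gave 0.65 and -0.05, and averaging them gave 0.42, where the unadjusted limma p was 0.0544. It was also above 0.05 in 3 of the 4 fits without an array, all but that without N-myc low mouse 1. Ncstn, a subunit of gamma-secretase, was at 7.77 and 7.47 against 8.11 and 7.90, a difference of -0.38 (SE 0.210) that turned to 0.33 when its probe sets were averaged. Adam10, the main protease of ligand-activated Notch, differed by -0.10.

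Among other ligands, with a median of 0.10 over 6 genes, Ccn3, a secreted protein that binds Notch, was at 5.86 and 4.25 in N-myc high and at 3.93 and 3.60 in N-myc low. Its difference of 1.29 (SE 0.571) came for the most part from mouse 1. Cntn1, an adhesion protein that can bind Notch, was dim and gave -0.47 (SE 0.261).

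Coactivators of the RBPJ complex had a median of 0.01 over 7 genes, which was the value of Kat2a. Other probe sets of Kat2a gave 0.81 and 0.94, higher without overlap. Those of Kat2b and Maml1 reached -1.17 and -0.84, lower without overlap, and another of Maml1 gave 0.84, higher without overlap. Maml2, of the Mastermind-like family, gave 0.74 (SE 0.346), with 7.73 and 8.63 in N-myc high against 7.41 and 7.47 in N-myc low. The acetyltransferase gene Ep300 gave -0.46 (SE 0.235). Corepressors had a median of 0.09 over 12 genes, and 10 of these had opposite signs in the mice, as had 46.1% of all genes. Tle1 of this group gave -0.15, and -1.68 with its other probe set, which was lower without overlap. Sharpin, listed there although it is known as a subunit of a ubiquitin ligase and not as an RBPJ corepressor, gave 0.65 (SE 0.535), and the median of the other 11 was 0.08. Rbpjl, a relative of Rbpj, gave 0.20 (SE 0.241), with opposite signs in the mice.

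Genes of endocytosis and turnover had a median of 0.11 over 17 genes. Numbl, of the Numb family of Notch antagonists, was at 5.49 and 4.79 in N-myc high and at 4.60 and 4.12 in N-myc low, a difference of 0.78 (SE 0.332). Epn1, an epsin of ligand endocytosis, was at 6.21 and 6.27 against 7.11 and 6.62, a difference of -0.62 (SE 0.239).

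Target genes had a median of 0.03 over 18 measured genes, with 1 higher and 4 lower without overlap, where all genes had 15.6% and 20.8%. The higher one was Ccnd1, a cyclin of G1 phase that many pathways besides Notch control, at 8.87 and 8.41 in N-myc high against 7.62 and 7.79 in N-myc low. Its difference was 0.93 (SE 0.236; limma, unadjusted p = 0.0131, adjusted p = 0.762), and its other probe sets gave 0.93 and 0.52. Without N-myc high mouse 1 its p was 0.0613, and without N-myc low mouse 1 it was 0.0590. The repressor gene Hes2 was dim and gave -0.47 (SE 0.262). Further targets, named with their values known, were Hey1 at 0.07, Nrarp at 0.16, Dtx1 at 0.09 and Hes5 at 0.26, each with overlapping groups, and Hey2 at -0.16, lower without overlap. A second probe set of Hes5 gave 0.83, at 4.77 and 5.37 in N-myc high against 4.24 and 4.24 in N-myc low, without overlap (limma, unadjusted p = 0.0337).

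**Figure D4:**
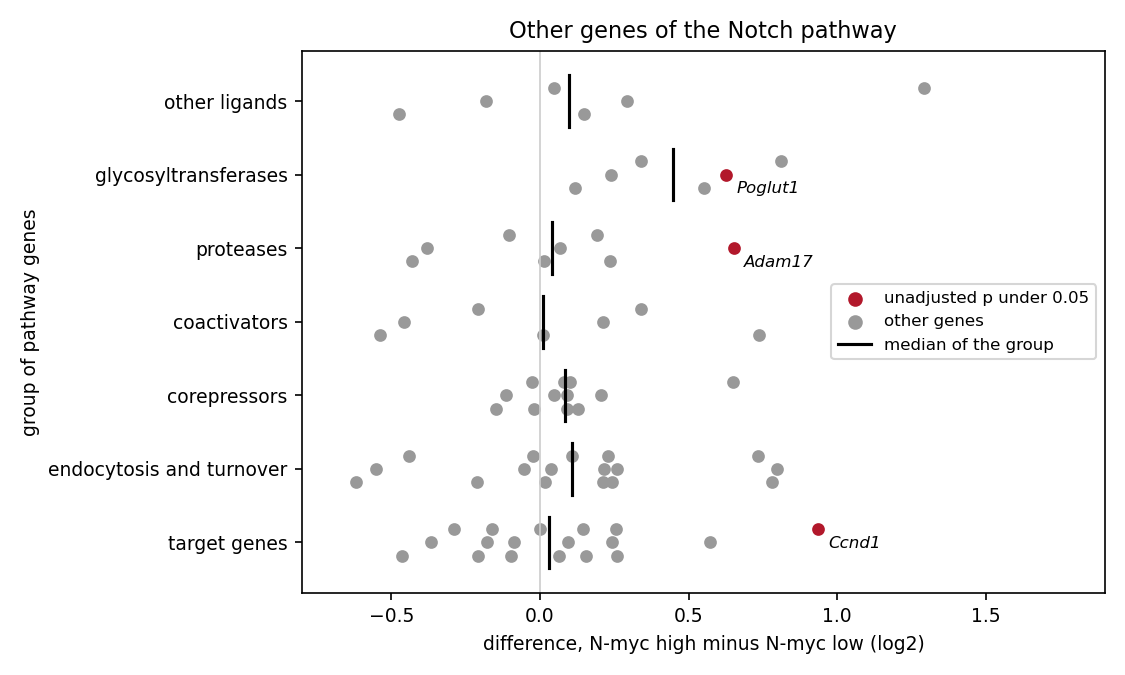
Difference between N-myc high and N-myc low on the log2 scale (x axis) for the 74 other measured genes of the Notch pathway, by group (y axis), with genes at an unadjusted p under 0.05 in red and the group median as a black line. The 3 red points are Poglut1 at 0.63, Adam17 at 0.65 and Ccnd1 at 0.93, and the 6 glycosyltransferase genes all lie right of 0. Each gene is shown with the probe set that stands for it.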

How the data were processed

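Total RNA (5 ng per sample, amplified and biotin-labelled, per the labels' protocols) was measured on 4 Affymetrix arrays. The authors deposited log2 intensities per probe set. The submitters' processing notes name RMA, affy and limma, and give no versions. The genome build and filters are not stated there. Of 45101 probe sets, 64 were controls, 34945 named 1 gene, 932 several and 9160 none here. The Entrez number of 34741 was found in RefSeq (GRCm38.p6), which changed 0 symbols.

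Tests used limma 3.58.1 (lmFit, eBayes; R 4.3.3) over 18193 genes, and for single probe sets over 45037, with Benjamini-Hochberg adjustment at 0.05. The script was tested on simulated data. Of simulated differences of 1 on the log2 scale, 0% reached an adjusted p under 0.05 in limma, and of those of 2, 29.5% did. SEs and 95% intervals are those of the fit, without a filter on dim genes. Where the text gives a standing probe set, the fit over genes applies.

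The labels' titles give mouse 1 and mouse 2 in both fractions, and these were read as the same animal, although the Xist and Eif2s3y values of mouse 1 put a single animal there in doubt. Deviations of same-numbered arrays correlated at r = 0.0492 across genes. The mouse as a replicate block was an alternative, besides the mean of probe sets, a dimness filter, a variance trend, median centring, every probe set, and leaving out each array. Nothing in the labels says that samples are single animals, so p-values refer to these samples. They do not rest on the spread between the samples alone. The eBayes step draws each gene's variance toward a prior from all genes (prior SD 0.23, 2.51 prior degrees of freedom). Jag1 had SDs of 0.0069 and 0.012 within the groups, far below that prior, so its SE of 0.172 came almost wholly from the prior.

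All 10 genes were named, and from the other pathway genes those at an unadjusted p under 0.05 and the 2 of smallest p in each group. The 3 genes nearest to the member of smallest p were also named. Some others were picked with their values known: Adam10, Lfng, Eogt, Rfng, Kat2a, Kat2b, Maml1, Tle1, Fbxw7, Hey1, Hey2, Nrarp, Dtx1, Hes5, and the marker genes given singly. The genes and lists were chosen with earlier results of these data known. Promoters came from RefSeq (GRCm38.p6), 250 bases before the start.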

Additional observations from a re-analysis of the deposited data

How the results depend on the processing

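The count of genes at an adjusted p under 0.05 was 0 under every alternative run, for all genes, the 10 Notch genes, their probe sets and the other pathway genes. In the simulated data 0% of differences of 1 on the log2 scale, about that of Notch3, passed this threshold. A count of 0 therefore says little about differences of that size. Notch3 kept its sign in all 9 alternatives that held it, between 0.83 and 1.18, with adjusted p from 0.553 to 0.957. It was left out with the dimmer genes, as were 4 others of the 10. The mouse as a replicate block moved the other pathway genes at an unadjusted p under 0.05 from 3 to 5 higher, with Poglut1 lost and Ccn3, Lfng and Numbl gained. It took Notch3 past a p of 0.01, and it exchanged probe sets of Notch1 and Notch4 for one of Jag2 at a p under 0.05. No paired value differs in size, since the design is balanced.

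With the mean of probe sets, 2 Notch genes, Notch3 and Jag1, were higher at that p. Of the 10, 0 were lower without overlap, and their median was 0.29. Jag1 was 0.76, Jag2 0.32, Rbpj 0.19 and Ncstn 0.33, all with the sign turned. Of the other pathway genes 5 were higher and 2 lower. With arrays centred, the median of the 10 was 0.10, Dll1 was 0.014 and Rbpj 0.022. Without dimmer features, 606 genes had an unadjusted p under 0.05 and 106 also passed a p under 0.01 and 1.5-fold. Without overlap, 1740 were higher and 1634 lower. Of the Notch genes 0 were higher at that p, and 1 higher and 0 lower without overlap. Of their probe sets 1 was higher, with 5 and 0 without overlap, and 6 other pathway genes were lower without overlap. Over every probe set, 2870 had an unadjusted p under 0.05, 557 passed the stricter rule, and 6475 and 9956 were higher and lower without overlap. More or fewer features were tested there.

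Leaving out 1 array gave 117 to 319 genes at the stricter rule (223 with all arrays). It gave 1 to 2 Notch genes higher with medians of -0.0040 to 0.17, and 2 to 4 of their probe sets higher. Of the other pathway genes, 1 to 7 were higher and 0 to 1 lower, with medians of -0.011 to 0.13. Sign turns occurred for Notch1 (-0.34 to 0.49), Dll1 (-0.19 to 0.16), Jag2 (-0.34 to 0.013), Hes1 (-0.17 to 0.40), Rbpj (-0.19 to 0.17), Sharpin (-0.074 to 1.37) and Rbpjl (-0.044 to 0.45). Overlap was not counted there, as 1 array stood alone. The cause of these shifts was not tested. Signal over background could not be judged without detection calls.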
